A study of Mus musculus with 65 samples.

Results

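Forkhead (Fox) genes encode transcription factors that share a winged-helix DNA-binding domain and are named by class letter and number. The 39 genes described here are all symbols of the gene count tables that run from class A to class S in that nomenclature, leaving out Foxj1, Foxj2, Foxj3, Foxa2 and Foxd3. They are 39 of 24465 symbols counted, and 44 symbols matched the naming pattern before the 5 were left out. Membership rests on the gene name alone and used no measured value.

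FOXA proteins are pioneer factors that bind closed chromatin in endoderm. FOXC, FOXD and FOXF proteins pattern mesoderm, neural crest and mesenchyme, FOXH1 carries Nodal and activin signals to DNA with SMAD proteins, FOXM1 drives the mitotic gene program, and FOXO proteins are held in the cytoplasm by AKT downstream of insulin. Many developmental Fox genes lie in CpG-rich chromatin that Polycomb repressive complex 2 marks with trimethylation of histone H3 at lysine 27 (H3K27me3) in embryonic stem cells. H3.3 is a histone H3 variant deposited outside replication, and H3.3K27me3 is the same trimethylation on that variant.

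Mouse embryonic stem cells were measured at day 0, in serum with leukemia inhibitory factor, and at day 3 or day 6 as rotating embryoid bodies kept without the factor in 10 µM all-trans retinoic acid. RNA of wild-type cells was sequenced in 2019 at days 0, 3 and 6, with 2 libraries a day. A separate set from 2020 had 2 libraries a group at days 0 and 6 for wild type (1 at day 0), for a line edited by CRISPR/Cas9 to lack H3.3A (H3.3A knockout) and for a line named H3.3K27A, after an alanine in place of lysine 27 of H3.3. Chromatin immunoprecipitation (ChIP) of H3.3K27me3, H3K27me3, H3.3 and H3 was done on wild-type cells only, at days 0 and 6, in duplicate. The sources used here do not say how many clones each edited line comprised, and no RNA label ties a duplicate to its own culture, so p-values measure the spread between these libraries, which may be technical.

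Reads counted in genes ranged from 6.97 to 12.71 M (megareads) per library in 2019 and from 14.27 to 22.03 M in 2020. Levels are in CPM, the count of a gene over the scaled library total in its usual unit. H3f3a, the H3.3A gene, stood at 20.4 to 24.2 CPM in the 8 libraries of the H3.3A knockout and H3.3K27A, against 114 to 129 CPM in wild type of the same year (3 libraries). H3f3b, the H3.3B gene, stood at 499 to 599 CPM in H3.3K27A, 872 to 1134 CPM in the knockout and 797 to 894 CPM in that wild type. The part of this difference in the comparisons of H3.3K27A was not tested. Gapdh was at 594 to 1560 unscaled CPM in 2019 and at 3.54 to 11.6 in 2020, so levels were not compared between years. The summed CPM of 10 pluripotency markers was 5303 to 5646 at day 0 and 234 to 255 at day 6 in 2019, and in wild type in 2020 it was 4886 and then 247 to 286. The H3.3A knockout duplicates at day 6 differed more than any other pair of duplicates, with an SD of the log2 difference over all tested genes of 0.562 against 0.299 to 0.454 elsewhere.

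More forkhead members reached 1 CPM at day 6 than in undifferentiated cells. At day 0 of the 2019 series 17 members had a mean of at least 1 CPM and 10 had at least 10 CPM, against 26 and 20 at day 6. In wild type in 2020 these counts were 20 and 10 at day 0, against 24 and 16 at day 6. In the H3.3A knockout they were 21 and 11, then 25 and 16, and in H3.3K27A 21 and 10, then 24 and 16. The share of all genes at these levels was not computed. Per kilobase of exon, the highest levels at day 0 in 2019 were those of Foxh1 (34.8 CPM per kb), Foxp4 (32.2), Foxo4 (27.9), Foxm1 (18.9), Foxk2 (18.6) and Foxo1 (12.3). At day 6 the order was led by Foxp4 (67.3 CPM per kb), Foxc2 (50.9) and Foxf1 (45.2). In wild type in 2020, Foxp4, Foxo4 and Foxh1 led at day 0 (46.7, 32.0 and 29.2 CPM per kb) and Foxp4, Foxa1 and Foxo4 at day 6 (68.0, 25.3 and 22.4).

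Foxn2 was listed at 0 in all 17 libraries and Foxp1 at 0 to 4 counts. The authors' deposited table of the 2019 libraries nevertheless gives Foxn2 a mean normalized count of 518.8 and a log2 change of -1.58 by day 6. It gives Foxp1 a mean of 2474.3 and a log2 change of 0.09. Foxp3 has a mean of only 4.1 there, against 111 counts summed over the 2 day 0 libraries of 2019. The deposited counts and that table thus do not match for these genes. Kmt2a, which every cell uses, was listed at 0 to 3 counts and Stag1, a cohesin subunit gene, at 0, so a listed 0 is not read as absence of the transcript. In each year 30 members had enough counts to be tested. Foxb2, Foxd4, Foxe3, Foxi1, Foxi2, Foxn1, Foxn2 and Foxp1 were tested in neither year, Foxs1 was not tested in 2019 and Foxp3 was not tested in 2020.

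**Figure D1:**
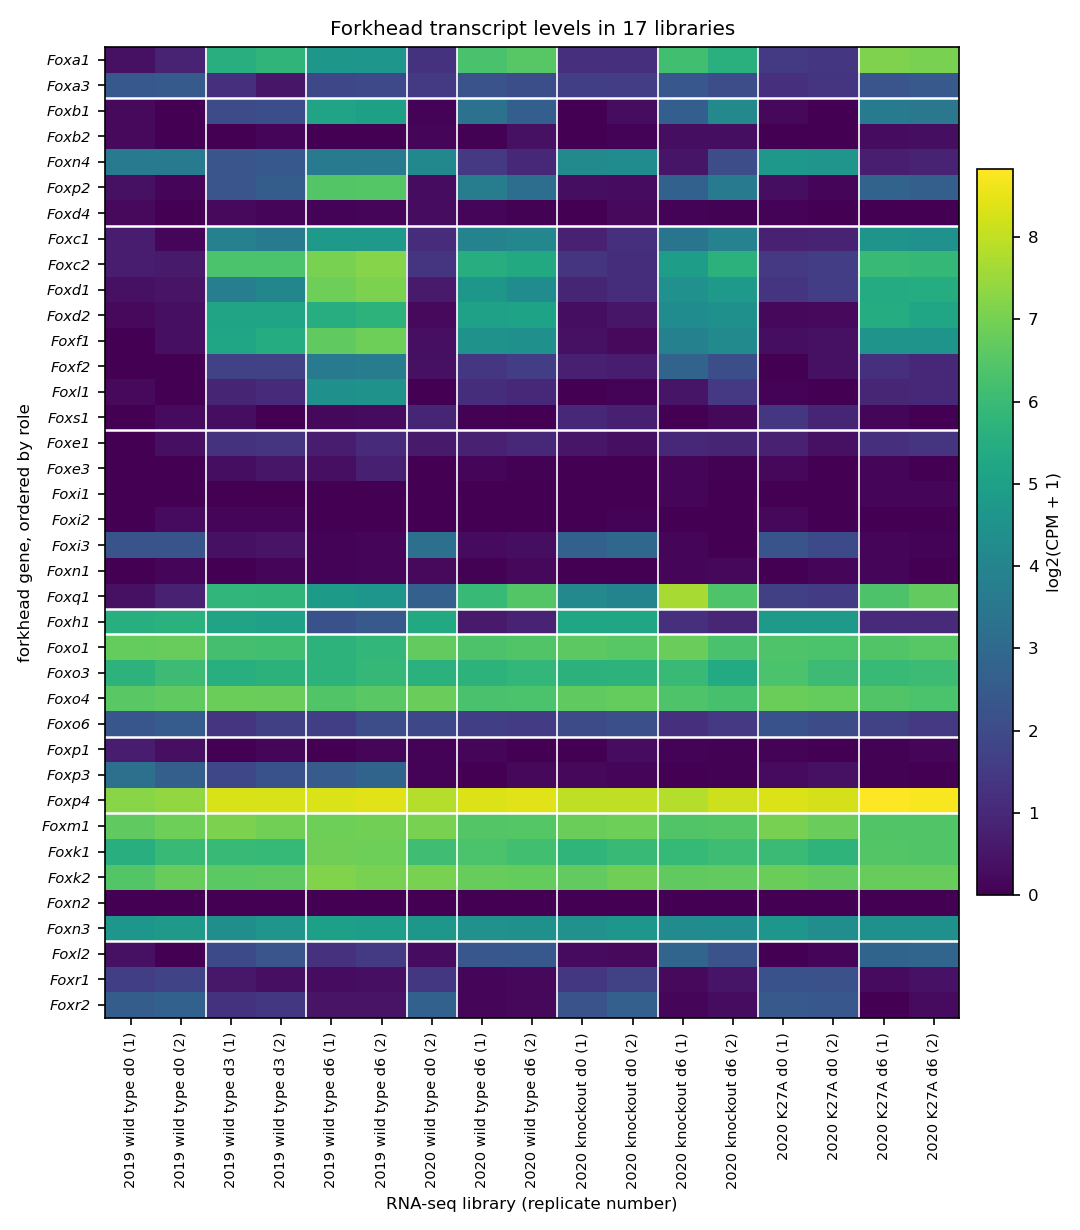
Level of forkhead genes (rows, ordered by role) in each of the 17 RNA-seq libraries (columns), as log2 of CPM plus 1 on a color scale. Mesenchymal genes such as Foxf1 and Foxc2 are dark at day 0 and bright at day 6, Foxh1 runs the other way, and Foxk2 and Foxo4 are bright in every library.

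In the 2019 time course, the question was how the family changes over 6 days of retinoic acid. From day 0 to day 6, 17 of 30 tested members rose and 6 fell (edgeR quasi-likelihood test, Benjamini-Hochberg adjusted p below 0.05). Over all 13593 genes tested 41.4% rose and 36.6% fell. The median log2 fold change of the 30 members was 1.10, against 0.09 for all genes tested. By day 3, 16 members had risen and 10 had fallen (all genes, 37.6% and 33.8%). From day 3 to day 6, 15 rose and 7 fell (all genes, 29.4% and 27.9%). In bulk samples, fewer cells of a type and less RNA per cell cannot be told apart. A member that passed the filter only through the group where it is high had to differ, so these counts describe the members that passed.

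The mesenchymal and vascular genes rose without exception among those tested, 7 of 7 in 2019. Foxf1, a regulator of visceral mesoderm, was at 0 and 0.281 CPM in the 2 day 0 libraries, 36.7 and 43.1 CPM at day 3 and 101 and 117 CPM at day 6. Each later day lay above every library of the day before. The day 6 to day 0 ratio was 610, with an exact 95% interval for counting error of 209 to 2960. Its paralog Foxf2 was at 0 in both day 0 libraries, at 2.27 and 2.25 CPM at day 3 and at 11.6 and 12.3 CPM at day 6. That is at least 12.7-fold higher at day 3 and at least 67.2-fold higher at day 6, taking 3 counts over the day 0 group as the floor.

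Foxc2, needed for lymphatic vessels and paraxial mesoderm, was at 0.643 and 0.562 CPM at day 0, 78.6 and 78.3 CPM at day 3 and 130 and 147 CPM at day 6. Its log2 fold change from day 0 to day 6 was 7.84 ± 0.17 (SE; edgeR adjusted p = 1.26e-12). Foxc1, its paralog, was at 0.643 and 0.0937 CPM, then 13.4 and 11.2 CPM, then 26.0 and 26.4 CPM, a log2 change of 6.41 ± 0.34. Mean levels at days 3 and 6 were 78.4 and 139 CPM for Foxc2 and 12.3 and 26.2 CPM for Foxc1. Both thus rose further after day 3, Foxc1 by 1.09 on the log2 scale.

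Foxd1 and Foxd2, which mark stromal and paraxial mesenchyme, followed different time courses. Foxd1 was at 0.321 and 0.375 CPM at day 0, 12.5 and 15.4 CPM at day 3 and 116 and 133 CPM at day 6. Its log2 fold change over the second interval alone was 3.15 ± 0.12 (edgeR adjusted p = 4.93e-10). Foxd2 stood at 0.161 and 0.281 CPM, then 35.0 and 34.3 CPM, then 44.5 and 50.9 CPM, so that only 0.46 ± 0.10 of its log2 change of 7.59 ± 0.25 came after day 3. Foxl1, expressed in gut mesenchyme next to the epithelium, came up last of the group. It was at 0.161 and 0 CPM at day 0, 0.89 and 1.13 CPM at day 3 and 20.7 and 21.5 CPM at day 6, a log2 rise of 4.37 ± 0.24 after day 3.

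Mesenchyme markers also rose through day 6, whereas endothelium markers did not. The summed CPM of 10 such markers (Col1a1, Twist1, Pdgfra and others) was 13.6 to 17.8 at day 0, 178 at day 3 and 1283 to 1478 at day 6 in 2019, with 1 or 2 of the 10 at 0 at day 0. All 10 rose. The part of cell composition in the forkhead changes was not tested.

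Among the neural members Foxb1 and Foxp2 rose, while Foxn4 returned to its starting level. Foxp2, a repressor expressed in many neurons, was at 0.321 and 0.0937 CPM at day 0, 4.05 and 5.10 CPM at day 3 and 86.5 and 89.0 CPM at day 6. The day 6 to day 0 ratio was 493 (95% counting interval 169 to 2393). Foxb1, expressed in the early neural tube and mammillary region, was at 0.161 and 0 CPM, then 3.08 and 3.3 CPM, then 34.4 and 31.6 CPM, a ratio of 560 with a wide counting interval of 100 to 22158 because the day 0 group held a single count. Foxb1 shares 14% of its exon length with a gene on the opposite strand.

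Foxn4, which acts in interneuron and retinal progenitors, was at 11.6 and 11.2 CPM at day 0, 3.97 and 4.35 CPM at day 3 and 11.8 and 11.6 CPM at day 6. It fell by 1.45 ± 0.18 on the log2 scale and then rose by 1.49 ± 0.18, both called, and its net change of 0.04 ± 0.16 did not pass the test. Summed neuron markers were also lowest at day 3, at 436 to 486 CPM at day 0, 46.6 to 70.7 at day 3 and 1275 to 1506 at day 6, where, unlike Foxn4, they lay above day 0. The part of neurons in the Foxn4 course was not tested.

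Foxa1 and Foxq1 peaked at day 3 in 2019. Foxa1, a pioneer factor of endoderm and other epithelia, was at 0.321 and 0.843 CPM at day 0, 46.1 and 54.3 CPM at day 3 and 24.3 and 23.6 CPM at day 6. It rose by 6.25 ± 0.24 and then fell by 1.07 ± 0.12 on the log2 scale (edgeR adjusted p = 7.72e-06 for the second step), and the 3 days did not overlap. Foxq1, expressed in several epithelia, was at 0.321 and 0.750 CPM, then 55.1 and 53.1 CPM, then 27.1 and 24.0 CPM. It rose by 6.49 ± 0.22 and then fell by 1.08 ± 0.11. Of Foxq1's exon length 66.1% is shared with A530084C06Rik on the opposite strand, and how the counting treated strand is not given in the sources used here, so its counts are uncertain. Summed endoderm markers rose from 11 to 12.9 CPM through 433 to 459 to 603 to 660, with no decline after day 3.

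Foxa3, the liver-enriched FOXA gene, had the inverse course, at 4.34 and 4.59 CPM, then 1.29 and 0.45 CPM, then 2.73 and 2.83 CPM. It fell by 2.37 ± 0.39 and rose by 1.68 ± 0.40 on the log2 scale, both called. The ovary regulator Foxl2 was low, with 0.321 and 0 CPM at day 0, 2.91 and 4.05 CPM at day 3 and 1.40 and 1.83 CPM at day 6. The thyroid and palate gene Foxe1 stayed under 1.6 CPM in every 2019 library.

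Foxh1, Foxi3, Foxr1 and Foxr2 fell with differentiation. Foxh1 was at 46.1 and 48.8 CPM at day 0, 34.4 and 32.1 CPM at day 3 and 3.69 and 4.48 CPM at day 6. It fell by 0.52 ± 0.10 up to day 3 and by 3.03 ± 0.14 thereafter on the log2 scale (edgeR adjusted p = 2.59e-09 for the second step), whereas pluripotency markers had lost most of their summed level by day 3 (688 to 693 CPM). Foxi3, known from placode and tooth development, went from 3.86 and 3.94 CPM to 0.324 and 0.375 CPM and then 0.0738 and 0.0914 CPM. Foxr1 and Foxr2, both known mainly from germ cells and tumors, fell by 3.20 ± 0.51 and 3.86 ± 0.38 on the log2 scale by day 6.

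The broadly expressed members moved by smaller amounts. Foxp4, the most abundant member per kilobase at day 6, was at 152 and 166 CPM at day 0, 311 and 314 CPM at day 3 and 323 and 340 CPM at day 6, a log2 rise of 1.06 ± 0.07. Foxk1 and Foxk2, repressors of autophagy genes, rose by 1.14 ± 0.11 and 0.46 ± 0.10. Foxo1 was at 106 and 107 CPM at day 0, 73.6 and 70.5 CPM at day 3 and 51.5 and 56.0 CPM at day 6, and fell by 0.99 ± 0.08 on the log2 scale. The log2 changes of Foxo3 (-0.12 ± 0.11) and Foxo4 (-0.13 ± 0.08) over the 6 days did not pass the test, nor did that of Foxm1 (0.12 ± 0.08).

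**Figure D2:**
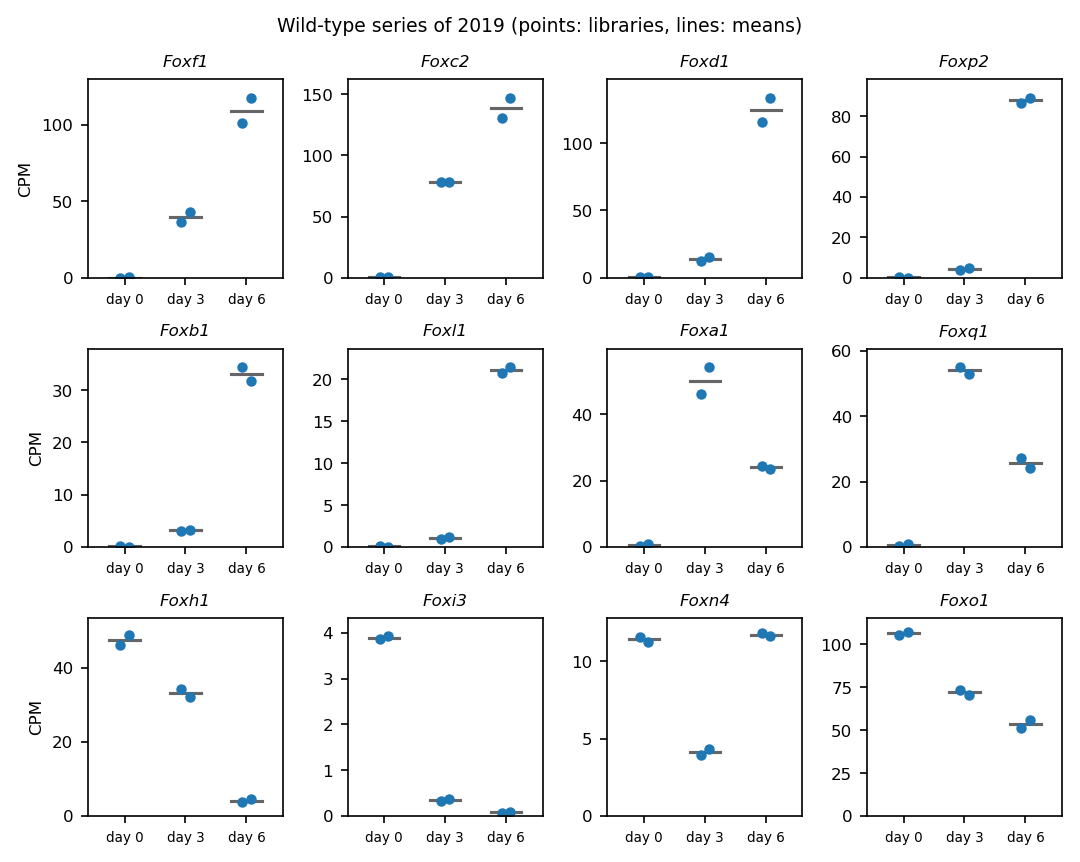
CPM on linear axes from 0 at days 0, 3 and 6 for 12 forkhead genes of the 2019 wild-type series, 1 panel a gene, each point a library and each short line the mean of 2. Foxf1 climbs throughout to 101 and 117 CPM, Foxa1 peaks at day 3 at 46.1 and 54.3 CPM, and Foxh1 declines to 34.4 and 32.1 CPM at day 3 and drops to 3.69 and 4.48 CPM at day 6.

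The effectors of these factors were followed through gene lists chosen with earlier results in view, to be read against the 41.4% of all genes that rose and 36.6% that fell. Of 18 mitotic genes known as FOXM1 targets 17 fell and 1 rose by day 6 in 2019, with a median log2 change of -1.01. Among them Nek2 (-1.50), Birc5 (-1.50), Ccnb1 (-1.42) and Ccnb2 (-1.40) changed most, while Foxm1 itself was at 102 and 116 CPM at day 0 and 117 and 121 CPM at day 6. Of 17 tested Nodal and FOXH1 pathway genes 9 fell and 6 rose. Those that changed most were the co-receptor gene Tdgf1 (-7.29), Gdf3 (-6.20) and the feedback inhibitors Lefty2 (-5.81) and Lefty1 (-4.92). Of 18 tested FOXO target genes 11 rose and 5 fell, led by Ccnd2 (4.39) and the atrophy ligase gene Fbxo32 (3.69), with Trim63 (-3.16) in the opposite direction. Of 12 AKT and insulin inputs 7 rose and 4 fell, among them Irs1 (4.08) and Sgk1 (-3.98). Of 11 forkhead cofactors 4 rose and 6 fell, among them Grhl2 (-3.00), Ctbp2 (-2.22) and Tle1 (1.17).

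In the wild-type cells of 2020, which share no library with the 2019 series, 14 of 30 tested members rose and 9 fell between day 0 and day 6 (all 14760 genes tested, 36.0% and 34.8%). Foxd2 was at 0.164 CPM in the single day 0 library and at 32.0 and 33.5 CPM at day 6, a ratio of 199 (95% counting interval 68.0 to 966). Foxa1 was at 1.48 CPM and then at 77.5 and 90.8 CPM (log2 5.82 ± 0.32, edgeR adjusted p = 2.39e-07). Foxf1 was at 0.274 CPM and then at 22.4 and 20.3 CPM (6.25 ± 0.35), and Foxb1 at 0.0548 CPM and then at 9.01 and 5.23 CPM, a ratio of 132 (23.6 to 5234). Foxl1 was at 0 and then at 1.23 and 0.959 CPM, at least 6.72-fold higher. Foxh1 fell from 39.8 CPM to 0.539 and 0.828 CPM, by 5.87 ± 0.21 on the log2 scale.

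Among the members tested in both years, 13 rose by day 6 in each and 4 fell in each. The share of all genes called the same way in both years was not computed, so these counts have no background. Foxk2 rose in 2019 and fell in 2020, from 132 CPM in the single day 0 library to a mean of 107 CPM. That fall was not called when either wild-type day 6 library was left out. A joint fit of the 9 wild-type libraries at all days, added after the data had been seen, tested the difference between the day 6 changes of the 2 years. The change was lower in 2020 for 13 members and higher for 2 (all 14556 genes tested, 24.6% lower and 13% higher). Foxn4, which returned to its day 0 level in 2019, went from 16.5 CPM to 1.77 and 1.00 CPM in 2020, a difference between years of -3.60 ± 0.30 on the log2 scale (edgeR adjusted p = 1.89e-06). The Foxc2 difference was -3.14 ± 0.44, with 1.59 CPM at day 0 and 44.1 and 39.8 CPM at day 6 in 2020. Foxa3 went the other way, from 1.81 CPM to 3.74 and 3.31 CPM, a change higher by 1.64 ± 0.47 than in 2019. The Foxa3 difference did not pass with DESeq2. Foxo1 stood at 104 CPM and then 81.1 and 84.1 CPM, a change higher by 0.65 ± 0.11. Foxa1 (0.63 ± 0.58) and Foxd2 did not pass this test.

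Summed mesenchyme markers were at 379 CPM at day 0 and 410 to 447 CPM at day 6 in these cells, a sum without the rise of 2019. Of the 10 genes, 6 were called higher and 4 lower by day 6 (all genes, 36.0% and 34.8%). Summed neuron markers were at 601 CPM at day 0 and 214 to 376 CPM at day 6, with 2 of 7 tested genes called higher and 1 lower. The 2 years differ in library depth and in the share of reads outside annotated genes (25.7% to 43.3% against 11.3% to 16.8%), and year and batch cannot be told apart.

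The same change over days was measured in the edited lines. In the H3.3A knockout 14 members rose and 10 fell (all genes, 40.8% and 36.4%), and in H3.3K27A 16 rose and 9 fell (39.5% and 37.2%). The members that rose in all 3 lines were 13, namely Foxa1, Foxa3, Foxb1, Foxc1, Foxc2, Foxd1, Foxd2, Foxf1, Foxf2, Foxl1, Foxl2, Foxp2 and Foxq1. Those that fell in all 3 were 8, namely Foxh1, Foxi3, Foxm1, Foxn4, Foxo4, Foxr1, Foxr2 and Foxs1. Of all genes tested 31.7% rose and 30.9% fell in all 3 lines. Foxo1 and Foxo3 were among the members called in none.

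In the H3.3A knockout Foxi3 went from 5.73 and 6.69 CPM to 0.105 and 0 CPM, a ratio of 130 downward (95% counting interval 35.6 to 1081). Foxp2 went from 0.258 and 0.221 CPM to 5.60 and 11.2 CPM, and Foxb1 from 0 and 0.221 CPM to 5.18 and 16.9 CPM, so for both the day 6 duplicates differed widely. In H3.3K27A Foxd2 went from 0.134 and 0.163 CPM to 42.9 and 36.3 CPM (log2 8.01 ± 0.25, edgeR adjusted p = 6.64e-09). Foxl2 went from 0 and 0.0813 CPM to 6.14 and 6.42 CPM there, a ratio of 170 (30.3 to 6752).

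Differences between lines were few. At day 0 none of the 30 members passed the edgeR test between H3.3A knockout and wild type (all genes, 0.0271% higher and 0.0949% lower). There 2 had an unadjusted p below 0.05 and DESeq2 called 0. Between H3.3K27A and wild type at day 0 edgeR also called 0 (all genes, 0.569% higher and 1.17% lower), with 7 members at an unadjusted p below 0.05 and 1 called by DESeq2. Wild type had a single day 0 library, which limits both comparisons. Between the edited lines at day 0, Foxq1 alone passed (all genes, 0.461% higher and 0.806% lower). It was at 2.22 and 1.87 CPM in H3.3K27A, 16.7 and 14.9 CPM in the H3.3A knockout and 5.48 CPM in wild type, and the log2 difference of H3.3K27A from the knockout was -2.94 ± 0.54 (edgeR adjusted p = 0.034). That call was lost in the fit with the replicate number as a block and when any of 8 libraries was left out (both of wild type at day 6, of the knockout at day 0 and of H3.3K27A at either day), with adjusted p from 1.42e-06 with DESeq2 to 0.311 with edgeR over the alternatives. Endoderm markers summed to 188 to 189 CPM in the knockout libraries, 33.2 to 39.4 in H3.3K27A and 64.0 in wild type, in the order of Foxq1, and their part in the result was not tested.

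At day 6 the H3.3A knockout had lower Foxd2 and Foxp4 than wild type and no member higher (all genes, 6.98% higher and 4.42% lower). Foxd2 was at 18.5 and 20.3 CPM against 32.0 and 33.5 CPM, a log2 difference of -0.75 ± 0.13 (edgeR adjusted p = 0.00737). Foxp4 was at 229 and 280 CPM against 329 and 340 CPM, a difference of -0.39 ± 0.10 (edgeR adjusted p = 0.0302). The groups of neither gene overlapped. The Foxd2 call was lost without either wild-type day 6 library (edgeR adjusted p up to 0.0704). The Foxp4 call was lost with the replicate block and without any of 8 libraries, those of wild type at day 6, the knockout at day 0 and H3.3K27A at both days (edgeR adjusted p up to 0.154). Leaving out either wild-type day 6 library left 0 members called, leaving out knockout replicate 1 gave 7 and leaving out knockout replicate 2 gave 13. With the replicate number as a block 1 member was called.

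H3.3K27A had higher Foxd1 than wild type at day 6 and no other member called (all genes, 1.13% higher and 0.908% lower). Foxd1 was at 41.9 and 43.3 CPM against 24.4 and 18.8 CPM in wild type and 21.1 and 26.3 CPM in the knockout. The difference from wild type was 0.98 ± 0.16 on the log2 scale (edgeR adjusted p = 0.0197). The call was lost without either wild-type or either H3.3K27A day 6 library, and 8 members were called without either knockout day 6 library, which enters only through the shared spread.

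The edited lines differed from each other most, with 7 members higher and 1 lower in H3.3K27A at day 6 (all genes, 9.03% and 9.64%). Foxa1 was at 139 and 130 CPM in H3.3K27A, 70.9 and 47.6 CPM in the knockout and 77.5 and 90.8 CPM in wild type, a log2 difference between the edited lines of 1.19 ± 0.16 (edgeR adjusted p = 0.00125). Wild type lay between the edited lines for Foxa1, without overlap. Foxd2, at 42.9 and 36.3 CPM in H3.3K27A, exceeded the knockout by 1.03 ± 0.13. Foxc1 was at 22.9 and 21 CPM in H3.3K27A, 9.90 and 14.1 CPM in the knockout and 14.2 and 15.8 CPM in wild type, a difference between edited lines of 0.87 ± 0.20 (edgeR adjusted p = 0.0148). Foxd1 (0.84 ± 0.16), Foxp4 (0.79 ± 0.10), Foxf1 (0.53 ± 0.16) and Foxk1 (0.44 ± 0.11) were the others that were higher. The calls of Foxc1, Foxd1, Foxf1 and Foxk1 were lost without either H3.3K27A day 6 library (for Foxc1, edgeR adjusted p up to 0.126), those of Foxf1 and Foxk1 also with the replicate block, and that of Foxf1 also without either library of wild type at day 6 or of either edited line at day 0.

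Foxf2 was the exception to that direction. It was at 6.07 and 3.33 CPM in the knockout, 1.62 and 2.05 CPM in wild type and 1.26 and 0.981 CPM in H3.3K27A, a log2 difference of H3.3K27A from the knockout of -2.05 ± 0.43 (edgeR adjusted p = 0.011). The call was lost without either H3.3K27A day 6 library, with edgeR adjusted p up to 0.0935. Foxf2 and Foxc1 lie on the same chromosome 13 cluster and differed between the lines in opposite directions. Without either H3.3K27A day 6 library 3 members were called between the edited lines, and without either knockout day 6 library 12.

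Marker genes also differed between the knockout duplicates at day 6. Endoderm markers summed to 2105 and 1390 CPM in replicates 1 and 2, against 769 and 893 in wild type and 666 and 788 in H3.3K27A, and 7 of the 10 were called higher in the knockout than in wild type. Neuron markers summed to 207 and 577 CPM and surface ectoderm markers to 1148 and 577 CPM in the knockout pair. The part of these cell types in the forkhead differences was not tested.

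Whether the change over days itself differed between lines was tested by interaction terms. No member passed for the H3.3A knockout against wild type (edgeR 0 calls, 3 at an unadjusted p below 0.05, DESeq2 0; all genes, 0.0407% in each direction). None passed for H3.3K27A against wild type either (edgeR 0 calls, 5 at an unadjusted p below 0.05, DESeq2 0; all genes, 0.549% higher and 0.217% lower). Foxd2 alone passed between the edited lines (all genes, 3.23% higher and 2.16% lower). Its rise was larger in H3.3K27A than in the knockout by 2.27 ± 0.55 on the log2 scale (edgeR adjusted p = 0.0472). Low day 0 levels enter this value, at a mean of 0.350 CPM (12 counts) in the knockout and 0.148 CPM (4 counts) in H3.3K27A. With DESeq2, with the replicate block and without any of 9 of the 11 libraries Foxd2 did not pass, and its adjusted p ranged from 0.0245 to 0.354 over edgeR and DESeq2 alternatives.

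**Figure D3:**
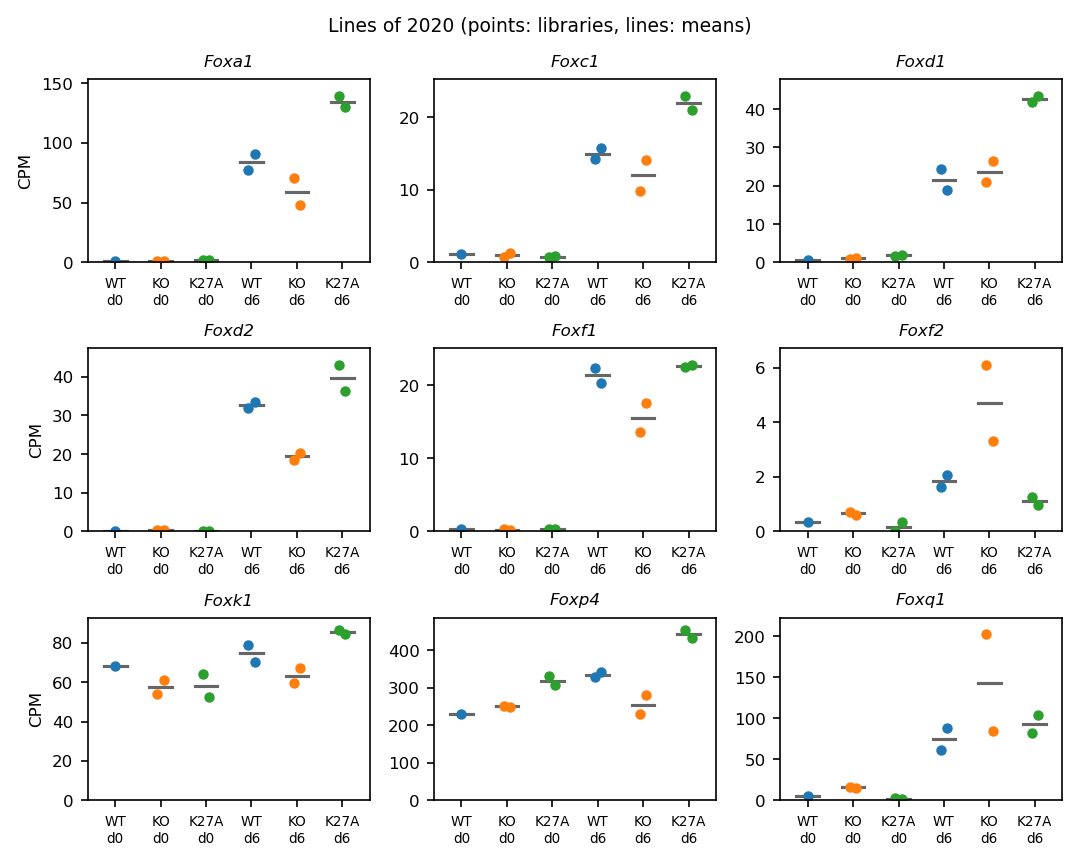
CPM on linear axes from 0 for 9 forkhead genes at days 0 and 6 in the 2020 libraries (WT, wild type; KO, H3.3A knockout; K27A, H3.3K27A), each point a library and each short line the group mean. At day 6 Foxa1 is at 139 and 130 CPM in H3.3K27A and at 70.9 and 47.6 CPM in the knockout, and Foxf2 has the opposite order.

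Of 18 FOXM1 mitotic targets edgeR called 0 at day 6 between either edited line and wild type. From day 0 to day 6 all 18 fell in each edited line, and 17 in wild type. Of all genes tested 36.4% fell in the knockout, 37.2% in H3.3K27A and 34.8% in wild type. FOXO targets were called in both directions in the knockout against wild type at day 6, with 2 of 18 higher and 4 lower (all genes, 6.98% and 4.42%). Between H3.3K27A and the knockout at day 6, 7 of the 18 were higher and 3 lower (all genes, 9.03% and 9.64%). Of 19 Nodal and FOXH1 pathway genes 4 were lower and none higher in H3.3K27A than in wild type at day 0 (all genes, 0.569% higher and 1.17% lower), where Foxh1 stood at 26.2 and 25.8 CPM against 39.8 CPM (log2 -0.61 ± 0.16, edgeR adjusted p = 0.117).

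At the chromatin level, the question was which forkhead promoters carried each mark before and after differentiation. A promoter is the annotated principal start site plus or minus 1 kb, and it counts as marked when a deposited filtered peak overlapped it in both duplicates. At day 0 H3K27me3 peaks covered 22 of 39 forkhead promoters (56.4%), and 17.8% of all 23581 promoters. H3.3K27me3 peaks covered 19 (48.7%), against 11% of all promoters. All 19 also had H3K27me3, and Foxn4, Foxo6 and Foxp1 had H3K27me3 only. H3.3 peaks covered 13 forkhead promoters (33.3%) and 37.6% of all. H3 peaks covered none in both duplicates, against 5.29% of all promoters.

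Most of the marked promoters were those of lineage regulators. Among mesenchymal and vascular members 7 of 8 had both trimethylation marks at day 0, all but Foxs1. Among neural members 5 of 6 had both, among ectoderm and placode members 5 of 7, in the FOXA pair Foxa1 only, and among gonad and germline members Foxl2. None of the FOXO genes, the cell cycle and housekeeping members, Foxp1, Foxp3, Foxp4 or Foxh1 had H3.3K27me3 in both duplicates.

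To show how marked and unmarked promoters compare in CpG content, 5 windows from 250 bases before to 50 bases after the start site are printed, from RefSeq for build GRCm38.p6, 5′ to 3′ on the gene's strand, with every CpG in capitals. Foxa1, at chr12:57546062-57546361 on the minus strand, and Foxc1, at chr13:31806396-31806695 on the plus strand, had both marks and rose. Foxi3, at chr6:70956356-70956655 on the plus strand, had both marks and fell. Foxk2, at chr11:121259737-121260036 on the plus strand, and Foxr2, at chrX:153118538-153118837 on the plus strand, had neither mark.
Foxa1: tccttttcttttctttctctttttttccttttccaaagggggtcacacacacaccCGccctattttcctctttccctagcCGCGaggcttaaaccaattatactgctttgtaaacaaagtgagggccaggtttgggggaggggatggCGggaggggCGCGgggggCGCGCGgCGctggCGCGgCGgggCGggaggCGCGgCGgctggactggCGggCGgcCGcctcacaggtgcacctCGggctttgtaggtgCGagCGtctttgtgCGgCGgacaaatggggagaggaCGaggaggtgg
Foxc1: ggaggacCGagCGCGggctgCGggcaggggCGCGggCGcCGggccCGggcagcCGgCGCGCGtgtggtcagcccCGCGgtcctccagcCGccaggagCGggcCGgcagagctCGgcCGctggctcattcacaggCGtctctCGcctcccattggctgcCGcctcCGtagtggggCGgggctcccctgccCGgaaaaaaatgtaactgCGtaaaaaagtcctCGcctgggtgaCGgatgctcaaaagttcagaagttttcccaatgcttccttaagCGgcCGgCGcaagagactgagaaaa
Foxi3: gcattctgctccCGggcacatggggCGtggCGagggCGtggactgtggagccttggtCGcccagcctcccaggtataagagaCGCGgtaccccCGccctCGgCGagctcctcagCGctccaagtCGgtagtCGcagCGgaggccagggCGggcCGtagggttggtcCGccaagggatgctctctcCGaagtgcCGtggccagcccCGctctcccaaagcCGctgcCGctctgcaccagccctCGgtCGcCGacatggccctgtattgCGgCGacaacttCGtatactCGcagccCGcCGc
Foxk2: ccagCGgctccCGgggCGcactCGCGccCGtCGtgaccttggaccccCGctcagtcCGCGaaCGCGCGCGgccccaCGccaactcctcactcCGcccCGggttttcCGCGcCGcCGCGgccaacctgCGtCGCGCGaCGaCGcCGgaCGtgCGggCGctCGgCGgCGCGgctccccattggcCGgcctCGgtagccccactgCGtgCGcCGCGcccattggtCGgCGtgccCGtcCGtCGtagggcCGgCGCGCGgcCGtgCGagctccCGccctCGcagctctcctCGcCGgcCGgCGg
Foxr2: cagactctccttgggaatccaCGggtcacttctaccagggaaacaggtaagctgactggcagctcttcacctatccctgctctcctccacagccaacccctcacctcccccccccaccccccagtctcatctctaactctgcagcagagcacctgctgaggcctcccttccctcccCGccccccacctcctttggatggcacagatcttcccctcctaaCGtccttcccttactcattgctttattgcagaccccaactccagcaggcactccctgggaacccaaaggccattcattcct

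The windows hold 26 CpG in Foxa1, 32 in Foxc1, 31 in Foxi3, 59 in Foxk2 and 3 in Foxr2. Foxk2 and Foxr2 show that unmarked members include both the most and the least CpG-rich windows. RefSeq windows were matched for 24 of the 39 members (27 windows). The median was 16 CpG per window for the members and 7 for all 32841 promoter windows. The 15 windows of members with an H3K27me3 peak at day 0 had a median of 22 and the 12 windows of the others a median of 12. GGGCGG, the GC box bound by Sp1-type factors, occurred on either strand in 70.4% of the member windows and 35.7% of all. TGTTTAC, a forkhead core motif, occurred on either strand in 3.70% of the member windows, which is Foxa1 alone, and in 3.65% of all. In Foxa1 it lies on the opposite strand starting 141 bases before the start site, within the printed run. AGGTCA, the core element of nuclear receptors such as those for retinoic acid, occurred in 18.5% and 16.3%. TATAAA occurred in 7.41% and 13.6%. The motifs searched do not overlap one another, and a match is a description of the letters, not of binding.

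By day 6 few forkhead promoters had a filtered H3.3K27me3 peak in both duplicates, while most kept H3K27me3. H3.3K27me3 remained at 3 promoters, among them Foxf1 and Foxl2 (7.69% of 39, against 2.62% of all promoters), and none was gained. Of all promoters marked at day 0, 2222 of 2595 lost the call. Of the 16 forkhead promoters that lost it, 6 had no peak in either day 6 duplicate, namely Foxa1, Foxb2, Foxe3, Foxf2, Foxi2 and Foxq1, and 10 kept a peak in 1 duplicate. The day 6 H3.3K27me3 libraries were the shallowest, with 33.6 and 37.8 M tags against 81.2 and 55.2 M at day 0. Their peaks covered 330.6 and 167.5 Mb, against 180.7 and 197.0 Mb at day 0. The lowest fold enrichment over the genome-wide mean of any filtered H3.3K27me3 peak was 2.09 and 2.37 at day 0. In both day 6 libraries it was 2.58. Foxi2 and Foxp2, each at 2.56 and 2.37 at day 0, lay below that day 6 value. The part of depth and of this higher lowest value in the lower count was not tested.

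H3K27me3 covered 19 forkhead promoters at day 6 (48.7%, against 10.9% of all), of which 17 were kept from the 22 of day 0. Of all promoters marked at day 0, 2163 of 4200 kept it. Foxi2, Foxo6, Foxp1, Foxp2 and Foxq1 lost the call, and Foxa3 and Foxs1 gained it. Of those that lost it, Foxo6 (fold enrichment 2.45), Foxp2 (3.08) and Foxq1 (4.03) kept a day 6 peak in 1 duplicate. Foxa3 and Foxs1 each already had a peak in a single day 0 duplicate. The Foxs1 peak stood at 4.46 there, against 4.03 and 2.77 at day 6. In the authors' deposited table the Foxs1 region was lower at day 6 (log2 -0.30, false discovery rate 0.00284). H3.3 peaks covered 7 (17.9%, against 25.4% of all) and H3 peaks none (all promoters, 2.09%).

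The peak heights differed between days as well. Heights here are the highest fold enrichment over the genome-wide mean within the overlapping region, as deposited by the authors, and may lie outside the promoter window. Over Foxf1 the H3K27me3 height was 7.55 and 8.45 at day 0 and 5.33 and 3.23 at day 6, and the H3.3K27me3 height was 4.18 and 4.26 and then 2.82 and 3.22. Over Foxd2 H3K27me3 was at 6.29 and 6.61 and then 4.61 and 3.23. Over Foxa1 it was at 5.35 and 5.53 and then 3.02 and 2.77. Each of these genes had both day 6 duplicates below both day 0 duplicates. Over Foxa3 a region of 2.36 in a single day 0 duplicate stood against 3.60 and 2.31 at day 6. The median over members with a peak was 5.19 and 5.61 in the day 0 H3K27me3 duplicates and 3.60 and 3.08 at day 6. For H3.3K27me3 the medians were 3.02 and 3.00, then 2.82 and 2.79. These medians cover called peaks only. The lowest filtered H3.3K27me3 peak of any gene stood at 2.09 and 2.37 at day 0 and at 2.58 in both day 6 libraries, so the medians are cut off at different heights. When a height of at least 3 was required, H3.3K27me3 was left on 7 promoters before differentiation and on 0 after it. The count of 7 leaves out Foxb2, Foxd2 and Foxe3, which had 2.9997 in duplicate 2 and at least 3 in the other, so it turns on how the threshold is rounded. With the same requirement H3K27me3 at day 6 dropped to 10.

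**Figure D4:**
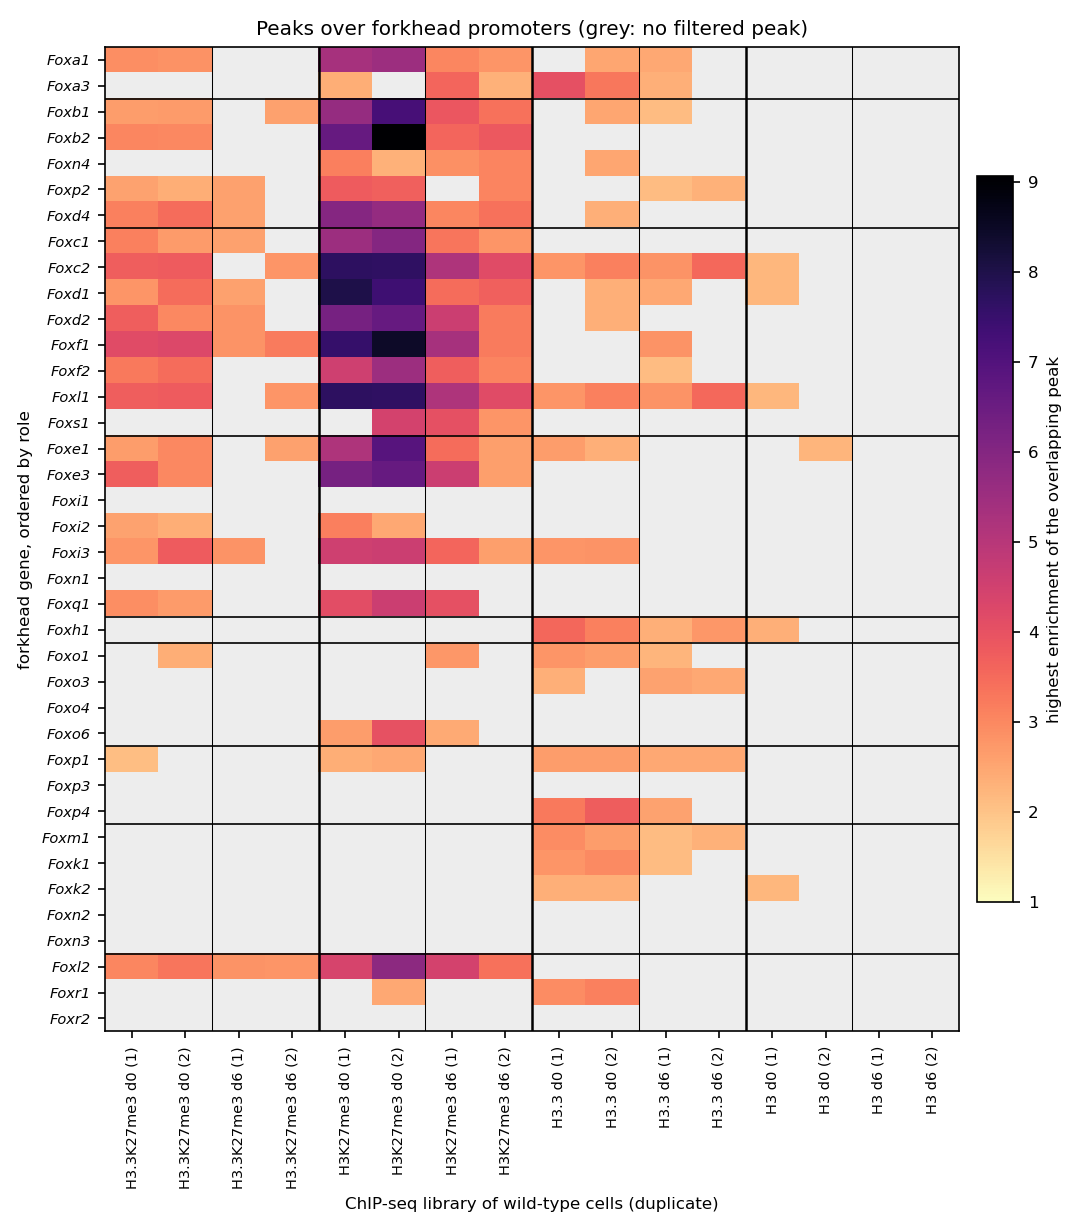
Highest fold enrichment of the peak over each forkhead promoter (rows, ordered by role) in each of the 16 ChIP-seq libraries, with grey where no filtered peak overlapped. The H3K27me3 columns are filled for most lineage regulators at both days, such as Foxf1 and Foxd2, whereas many H3.3K27me3 cells filled at day 0, such as both of Foxa1, are grey at day 6.

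The authors' deposited table of H3K27me3 differences between days holds a region over 24 forkhead promoters. By the authors' deposited table, 18 of these were lower at day 6 and 0 higher at a false discovery rate below 0.05 (75.0% lower, against 52.0% lower and 2.9% higher of all 6000 promoters in a region). The largest differences in the authors' deposited table were log2 -0.83 for a region of 47.2 kb shared by Foxd2 and Foxe3, -0.74 for Foxp2, -0.73 for Foxa1 in a region of 69.7 kb and -0.63 for Foxc1. The region of 139.0 kb shared by Foxc2 and Foxl1 was at -0.23 in the authors' deposited table, with a false discovery rate of 0.0789. Foxa3 (0.44), Foxn4 (0.10), Foxi2 and Foxo6 were not called there either. For H3.3 the authors' deposited table covers 22 forkhead promoters, with 2 higher, Foxp2 (0.39) and Foxp1 (0.23), and 9 lower, among them Foxi3 (-0.68), Foxe1 (-0.64) and Foxm1 (-0.41), against 4.8% higher and 60.9% lower of all promoters in a region. The authors' deposited table for H3 covers 3 and calls none (all promoters, 3.74% higher and 54.7% lower). The sources used here held no such table for H3.3K27me3.

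**Figure D5:**
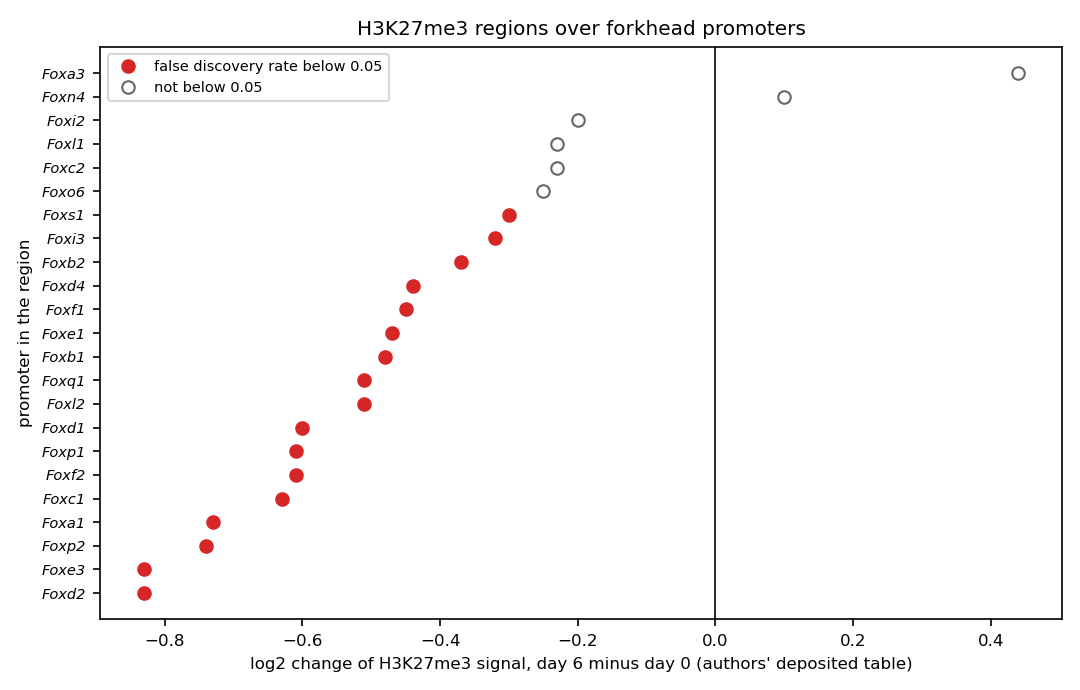
Log2 difference in H3K27me3 signal, day 6 minus day 0, from the authors' deposited table, for the regions over forkhead promoters. Values run from -0.83 at the region shared by Foxd2 and Foxe3 to 0.44 at Foxa3.

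Several members are neighbors, and of these Foxd2 and Foxe3 share an H3K27me3 region of the authors' deposited table, as do Foxc2 and Foxl1. On chromosome 13 the start sites of Foxq1 and Foxf2 lie 69.7 kb apart and those of Foxf2 and Foxc1 180.8 kb apart. On chromosome 8 Foxf1 and Foxc2 are 31.8 kb apart and Foxc2 and Foxl1 11.8 kb apart, and on chromosome 4 Foxd2 and Foxe3 are 17.1 kb apart. Time courses differed within each of these neighborhoods for some members. Foxq1 peaked at day 3 in 2019, while Foxf2 and Foxc1 rose through day 6. Foxc2 had reached 78.6 and 78.3 CPM at day 3, when Foxl1 was at 0.89 and 1.13 CPM. Foxe3 had no count at day 0 and stayed under 0.75 CPM in 2019, with Foxd2 in the same region at 44.5 and 50.9 CPM at day 6.

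Transcript changes were then read by the day 0 state of the promoter. Of the 19 members with both trimethylation marks, Foxb2, Foxd4, Foxe3 and Foxi2 had too few counts to be tested in either year. Members near 0 CPM at day 0 could pass the count filter only through a later, higher group. Their rise was thus partly fixed in advance, and the counts and medians describe the members that passed. Of 15 tested members with both trimethylation marks, 14 rose and 1 fell by day 6 in 2019, with a median log2 change of 7.59. Of all 1534 tested genes with both marks, 70.6% rose, with a median of 2.2. Of 13 members with neither mark 3 rose and 4 fell, against 33.6% of 10061 genes that rose. In 2020 wild type 12 of 15 members with both marks rose and 1 fell (median 4.72), against 58.2% of 1676 genes (median 1.42). Foxi3 was the member with both marks that fell in each year. Of 14 tested members that kept the H3K27me3 call at day 6 12 rose in 2019, against 64.5% of 1448 genes. Of the 3 that lost the call 2 rose, against 72.0% of 1456 genes. Those 3, Foxo6, Foxp2 and Foxq1, each kept a peak in 1 day 6 duplicate, so the mark was not gone from them.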

How the data were processed

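Sources and units. RNA counts are whole reads per gene symbol, deposited by the authors, made with STAR 2.5.2a and HTSeq on mm10 per the submitters' processing notes, with the strand setting not given in the sources used here. The libraries were poly(A)-selected with a directional kit per the labels' protocols. Peak tables were called with MACS2 2.2.6 without a control library, per the file headers, and hold the pileup signal, the fold enrichment ratio and the −log10 p-value for each summit. The authors' filtered peak lists carry a constant score, so only their coordinates were used. The authors' deposited tables hold log2 differences, signal and adjusted p-values (DiffBind and DESeq2, per the submitters' processing notes).

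Each year was fitted separately with edgeR 4.0.16 (R 4.3.3, limma 3.58.1) by the quasi-likelihood test with filterByExpr, TMM scaling and Benjamini-Hochberg adjustment over all genes tested at 0.05. The fits covered all 39 members plus every other gene, and standard errors are the log2 fold change over the root of the F statistic. The procedure was tested on simulated counts. Ratios use raw counts over library size, with 95% exact counting intervals, which cover counting error only. The floor for a group at 0 was 3 counts over the group. Promoters were GENCODE vM21 principal start sites with at least 1 bp of overlap with a peak. ChIP libraries held 33.62 to 81.65 M tags.

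Members and gene lists were chosen with earlier results of these data known. Values of 1 member are not reported here, and that member is left out of the figures but not of the counts. Values of every library were given for the 6 called members with the largest change per series of days and the 4 largest per comparison of lines with at least 1 CPM in the higher group, for every member whose interaction passed, and for others chosen after their values were seen. Alternatives were DESeq2 1.42.0, RLE size factors, no count filter, the replicate number as a block, each library left out, wider windows, stricter peaks and all calls. The joint fit of wild-type libraries, the crossed block and any annotated start site were added after the data were seen. Tables were handled with Python 3.11.15 and pandas 2.3.3.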

Additional observations from a re-analysis of the deposited data

Results flagged for a closer look

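The rise of Foxd2 between day 0 and day 6 differed between the edited lines by an interaction test, with a log2 difference of 2.27 in favor of H3.3K27A over the H3.3A knockout (edgeR adjusted p = 0.0472). It rests partly on day 0 groups of 12 counts in the knockout and 4 in H3.3K27A. The call was lost with DESeq2, with the replicate block and without most single libraries.

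The remaining results are members whose wild-type change from day 0 to day 6 differed between 2020 and 2019 in the joint fit, given as the 2020 minus the 2019 log2 change with the edgeR adjusted p. Among lineage regulators these differences by edgeR were Foxn4 at -3.60 (edgeR adjusted p = 1.89e-06), Foxd1 at -3.15 (edgeR adjusted p = 0.0121), Foxc2 at -3.14 (edgeR adjusted p = 0.000108), Foxc1 at -2.74 (edgeR adjusted p = 0.00515), Foxq1 at -1.66 (edgeR adjusted p = 0.0405) and Foxa3 at 1.64 (edgeR adjusted p = 0.0144). The Foxf2 value of -8.04 (edgeR adjusted p = 0.00119) depends on the prior count, because both 2019 day 0 libraries were at 0. The Nodal effector gene Foxh1 was at -2.32 (edgeR adjusted p = 3.46e-05), with its level at day 6 at 3.69 and 4.48 CPM in 2019 and 0.539 and 0.828 CPM in 2020.

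Among broadly expressed members the differences were Foxk1 at -1.02 (edgeR adjusted p = 0.000338), Foxk2 at -0.77 (edgeR adjusted p = 0.000732), Foxm1 at -0.68 (edgeR adjusted p = 0.000646), Foxo1 at 0.65 (edgeR adjusted p = 0.000571), Foxn3 at -0.53 (edgeR adjusted p = 0.0312), Foxp4 at -0.53 (edgeR adjusted p = 0.00133) and Foxo4 at -0.40 (edgeR adjusted p = 0.0128), all by edgeR. Not all of these differences held in the alternatives. Those of Foxa3, Foxn3 and Foxo4 did not pass with DESeq2. That of Foxq1 was lost without any 1 library of 2019 at day 0 or day 3, or replicate 1 at day 6. That of Foxc1 was lost without replicate 2 of 2019 at day 0, and those of Foxn3 and Foxo4 also without certain single libraries. Year and sequencing batch cannot be told apart here, and 2020 had 1 wild-type library at day 0.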

How the results depend on the processing

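Counts of forkhead members called between days were within 1.5 times of the values given under RLE size factors, DESeq2, no filter on low counts and the replicate block. No member called in the fits given above changed direction in any alternative that tested it. The direction of members not called was not compared. Comparisons between lines depended on the processing, and the causes were not tested. With DESeq2 the counts called were 1 for H3.3K27A against wild type at day 0, 2 between the edited lines at day 0, 3 for H3.3K27A against wild type at day 6 and 2 for the interaction between the edited lines. Without a filter on low counts they were 1 for H3.3K27A against wild type at day 0, 5 for the knockout and 4 for H3.3K27A against wild type at day 6, and 2 for that interaction. With the replicate number as a block they were 0 between the edited lines at day 0, 1 for the knockout against wild type at day 6 and 0 for the interaction between the edited lines, and no other count moved by over 1.5 times. The numbers do not establish pairing, since the deviations of libraries with the same number correlated at -0.358 to 0.141 in 2020 and -0.023 to 0.089 in 2019. Crossing the knockout numbers at day 6 gave 5 members for the knockout and 3 for H3.3K27A against wild type.

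With each library left out in turn, the counts were 0 to 1 (knockout against wild type) and 0 to 8 (H3.3K27A against wild type) at day 0, 0 to 13 and 0 to 8 at day 6, 0 to 5 between the edited lines at day 0 and 3 to 12 at day 6. The interactions gave 0 to 4 for each edited line against wild type and 0 to 6 between them. For H3.3K27A against wild type at day 0, 8 and 7 members were called without knockout day 6 replicate 1 and 2. Counts between days ranged from 23 to 26 (day 3 against day 0), 19 to 23 (day 6 against day 3) and 22 to 25 (day 6 against day 0) in 2019, 21 to 24 in wild type, 22 to 26 in the knockout and 23 to 26 in H3.3K27A in 2020, and 13 to 16 for the difference between years. Of 1458 values of single members with a library left out, 92 fell short of the threshold.

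For promoters, requiring an enrichment of at least 3 left 7 (day 0) and 0 (day 6) with H3.3K27me3, 10 with H3K27me3 at day 6, and 3 (day 0) and 0 (day 6) with H3.3. Using all MACS2 calls gave 6 with H3.3K27me3 at day 6 and 1 with H3 at day 0, and any annotated start site also gave 1 with H3 at day 0. With 1 duplicate used alone the counts were 20 to 20 and 7 to 9 for H3.3K27me3 at days 0 and 6, 23 to 24 and 20 to 22 for H3K27me3, 14 to 20 and 7 to 17 for H3.3, and 1 to 5 and 0 to 0 for H3. The part of depth in the H3.3K27me3 result at day 6 was not tested, and low counts limit Foxb1, Foxf2, Foxl1 and Foxl2.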

Other observations

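The authors' deposited table of differential expression for the 2019 libraries holds all 30 members tested here. Of the 23 members called between day 0 and day 6 here, 22 had an adjusted p below 0.05 in the same direction in the authors' deposited table, and 1 of the tested members, Foxo4, was called there and not here, as was Foxn2, which could not be tested because its deposited counts are 0.

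Some members that were untested in 1 or both years had low counts. Foxe3 was at 0 in both 2019 day 0 libraries and at 0.295 and 0.731 CPM at day 6, and Foxi1 was at 0 in all 6 libraries of 2019. Foxp3, the regulatory T cell factor, was at 8.52 and 5.44 CPM at day 0 in 2019. Of its exon length 31.5% is shared with neighboring genes, so these reads cannot be assigned to Foxp3 with certainty. Foxs1 was at 0.876 CPM at day 0 in wild type in 2020 and at 0.0385 and 0 CPM at day 6.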
